A study of Mus musculus with 6 samples.

Results

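The 36 genes described here mark hepatic stellate cells or build the matrix around them, and they were taken from a fixed list of symbols. Each gene is represented by 1 probe set (the set of short oligonucleotides that reads out a transcript), which the array annotation ties to that gene alone and which had the highest mean log2 signal over all 6 arrays. In this way 35 of the 36 genes were measured, of 18193 genes in all, and Fbn1, the microfibril protein fibrillin 1, was not analysed here. The genes were compared between the livers of A/J-12SM and A/J mice. A/J-12SM is a consomic strain that carries the whole of chromosome 12 from SM/J mice on an A/J background, and A/J is its recipient strain. All mice were young adult males given a high-fat diet for 7 weeks. Each strain has 3 one-colour Affymetrix arrays, and each array holds total RNA pooled from the livers of 3 mice, so a replicate is a pool and not a single animal. All genes of chromosome 12 differ in origin between the strains at once, among the members only Fbln5.

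Stellate cells lie between hepatocytes and the sinusoidal wall and store vitamin A as retinyl esters in fat droplets. On injury they are known to become myofibroblasts, which lose the droplets, take on a contractile cytoskeleton and secrete fibrillar collagen, and this is the main source of scar in fatty and other liver disease. The members were therefore ordered as markers of quiescent stellate cells, growth factor receptors and pericyte genes, activation genes, fibrillar and other collagens, proteoglycans and matrix proteins, and matrix proteases with their inhibitors. The arrays hold whole liver, in which stellate cells are a minority. Fewer cells of a type and less RNA per cell cannot be told apart in such data.

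The deposited MAS 5 signals had a higher trimmed mean in A/J arrays, with 172, 187 and 180 in A/J-12SM and 215, 202 and 205 in A/J liver. The log2 signals were therefore brought to one distribution by quantile normalization before the comparison. Differences are A/J-12SM minus A/J on the log2 scale and were tested with limma over all 45037 probe sets, with Benjamini-Hochberg adjustment. All 8 hepatocyte markers examined were at or above the median brightness of all probe sets (5.33 on the log2 scale), as were 32 of the 35 members, including all 7 markers of quiescent stellate cells. Such probe sets are called bright, and the others dim. The files hold no detection calls. The median SD of 3 arrays, in log2 units, was 0.21 for the brighter part of the probe sets and 0.86 for the part below that median. The ratio of 5′ to 3′ actin signal, a sign of RNA integrity, was 0.423 on A/J-12SM replicate 3 and 0.553 to 0.590 on the other 5 arrays.

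None of the 35 genes passed the test between A/J-12SM and A/J liver after adjustment. The lowest adjusted p from limma was 0.589, and 0.0555% of all probe sets and 0.066% of all genes were called at an adjusted p under 0.05. At an unadjusted p under 0.05 there were 4 members (Reln, Col4a1, Col14a1 and Lum), or 11.4% of the measured ones, beside 6.78% of all genes, and the methods' t-test gave 3 at that level and 0 after adjustment. The differences were small. They ranged from -0.33 for Thy1 to 0.68 for Gfap with a median of 0.02, against a median of -0.01 over all genes, and 29 of 35 lay within 0.3 of zero. Higher values in A/J-12SM were found for 19 members and lower values for 16, which is 54.3% higher against 49.1% of all genes. With the signals as deposited, where the median over all probe sets was -0.22, only 4 members had higher values. The arrays of the strains were apart in 3 members, or 8.57%, against 12.3% of all genes. Of these, Reln and Col4a1 were higher in A/J-12SM liver (5.97% of all genes were apart in this direction) and Col14a1 was lower (6.34%).

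**Figure D1:**
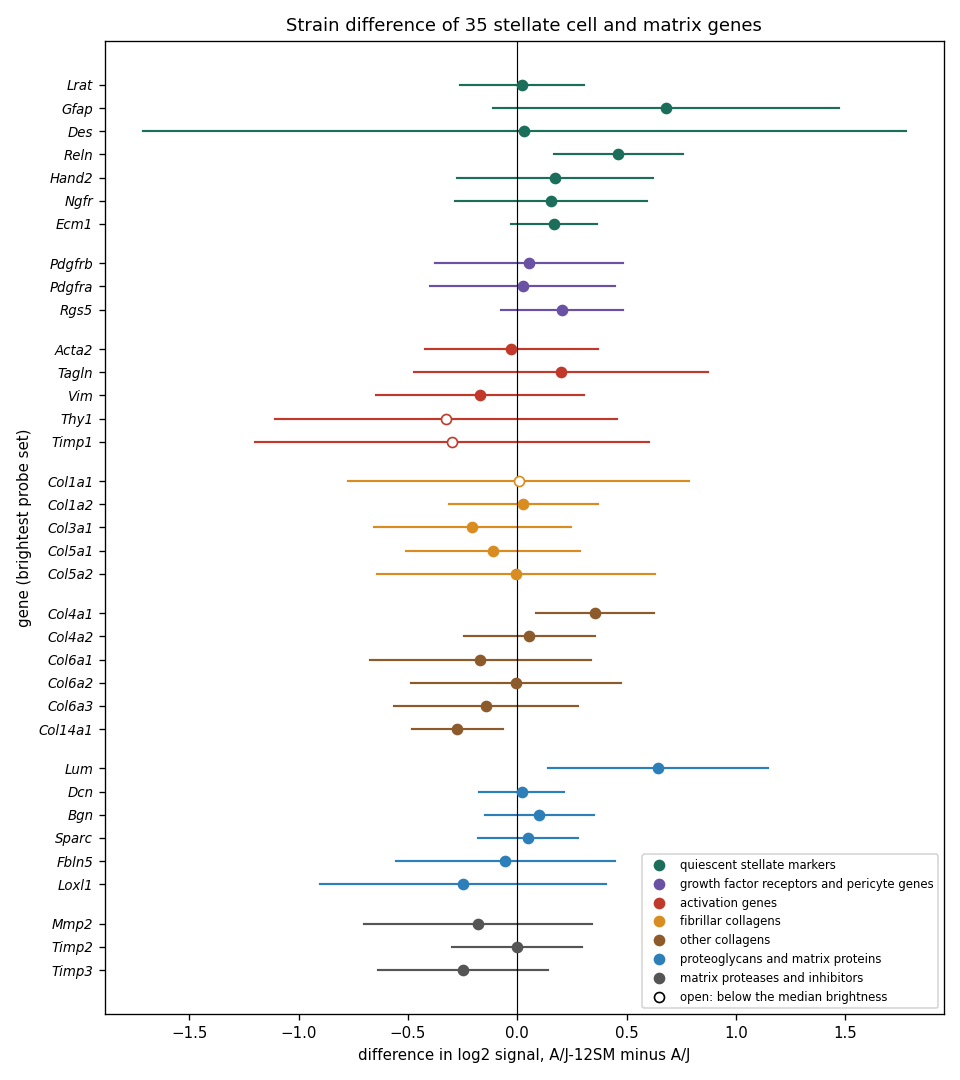
Difference in log2 signal (x axis, A/J-12SM minus A/J) of the brightest probe set of each of the 35 measured genes (y axis), ordered and coloured by role; points are estimates from 3 arrays per strain, lines are 95% intervals from limma, and open points are below the median brightness. The 7 markers of quiescent stellate cells lie right of zero, from 0.02 for Lrat to 0.68 for Gfap, and only the intervals of Reln, Col4a1, Col14a1 and Lum leave out zero.

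By their brightest probe sets all 7 markers of quiescent stellate cells had higher values in A/J-12SM liver, with a median difference of 0.17 that was -0.07 with the signals as deposited. When all probe sets of each gene were averaged, 4 of the 7 had higher values and the median was 0.024, with Reln at -0.17, Hand2 at -0.15 and Ngfr at -0.73. None passed the test. Reln encodes reelin, a secreted glycoprotein that stellate cells produce in the liver. Its log2 signal was 10.09, 10.33 and 10.62 in A/J-12SM and 9.80, 9.84 and 10.004 in A/J liver. The strains did not overlap, and A/J-12SM replicate 3 was the highest of the 6. The difference was 0.46, or 1.38-fold (SE 0.13, 95% interval 0.17 to 0.76, adjusted p = 0.589 from limma, p = 0.1 by an exact two-sided permutation test, which can give no smaller p with 3 arrays per strain). With the signals as deposited the difference of Reln was 0.26 (SE 0.15, unadjusted p = 0.104 and adjusted p = 0.469 from limma). A second Reln probe set, below the median brightness, gave -0.81 (SE 0.92), with A/J-12SM replicate 3 at 1.34 and the other arrays at 4.31 to 5.54.

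Gfap, an intermediate filament protein of astrocytes that rodent stellate cells share, had the largest difference of the members. Its log2 signal was 5.22, 6.03 and 6.15 in A/J-12SM and 5.35, 4.68 and 5.33 in A/J liver. A/J-12SM replicate 1 lay below 2 of the A/J arrays, so the strains overlapped, and the signal was close to the median of all probe sets. The difference of 0.68 (SE 0.35, 95% interval -0.11 to 1.47, adjusted p = 0.826 from limma) was 0.13 when averaged with 2 dimmer Gfap probe sets. Glial cells share Gfap and Ngfr. The summed signal of 4 glial markers was 135.95 to 169.57 in A/J-12SM and 108.22 to 129.54 in A/J liver, apart between the strains. Among these 4 only the dim S100b and Cdh19 were apart, with differences of 2.25 (SE 0.52) and 1.69 (SE 0.71). The strains overlapped in the bright markers Mbp, at 0.16 (SE 0.35), and Sox10. Sox10, the brightest of the 4, was the only lower marker, at -0.22 (SE 0.30). The part of glial cells in the values of Gfap and Ngfr was not tested. Ecm1, a secreted matrix protein that binds latent growth factors, had 10.28, 10.33 and 10.14 in A/J-12SM and 10.05, 10.05 and 10.14 in A/J liver. Its difference of 0.17 (SE 0.09, adjusted p = 0.825 from limma) was narrow, and 1 array of each strain reached the same level of 10.14. Lrat, which makes the retinyl esters that stellate cells store, averaged 8.11 ± 0.18 in A/J-12SM and 8.09 ± 0.07 in A/J liver (SD, n = 3 each). Its 95% interval of -0.26 to 0.31 ends at 1.24-fold above, and its other probe set gave 0.03. Hand2, a transcription factor of the stellate lineage, had a difference of 0.17 (95% interval -0.28 to 0.62), and Ngfr, the low-affinity neurotrophin receptor, one of 0.15 (95% interval -0.29 to 0.60). Des, the muscle-type filament protein desmin, could not be compared with any precision. Its signal was 6.29, 4.23 and 6.22 in A/J-12SM and 6.74, 6.17 and 3.72 in A/J liver, with 1 low array in each strain and an interval from -1.71 to 1.78.

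The promoters of 4 genes are shown because they stand on both sides of the comparison, Reln and Ecm1 among the quiescent markers and Vim and Col3a1 among the activation and collagen genes. They are the 250 bases before a RefSeq start site on GRCm38.p6, 5′ to 3′ on the strand of the gene. The first entry of each gene was used, and 25 of the 35 measured genes had an entry. For Ecm1 the start used lies inside the annotated gene, which reaches 95739876, and so do the bases shown. Capitals mark matches on either strand to TATAAA, to CCAAT or to GGGCGG, the core of a GC box.
Reln (chr5:22344706-22344955, minus strand): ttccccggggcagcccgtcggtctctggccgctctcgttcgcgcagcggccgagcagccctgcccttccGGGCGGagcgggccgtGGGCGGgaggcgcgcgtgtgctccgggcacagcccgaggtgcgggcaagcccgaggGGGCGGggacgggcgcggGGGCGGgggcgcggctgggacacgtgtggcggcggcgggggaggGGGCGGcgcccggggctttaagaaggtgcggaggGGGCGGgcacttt
Ecm1 (chr3:95739570-95739819, minus strand): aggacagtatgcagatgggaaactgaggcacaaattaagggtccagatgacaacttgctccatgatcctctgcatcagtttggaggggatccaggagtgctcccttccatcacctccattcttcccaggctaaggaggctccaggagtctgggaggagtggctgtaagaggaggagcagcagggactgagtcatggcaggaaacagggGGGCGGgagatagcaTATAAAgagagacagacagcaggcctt
Vim (chr2:13574061-13574310, plus strand): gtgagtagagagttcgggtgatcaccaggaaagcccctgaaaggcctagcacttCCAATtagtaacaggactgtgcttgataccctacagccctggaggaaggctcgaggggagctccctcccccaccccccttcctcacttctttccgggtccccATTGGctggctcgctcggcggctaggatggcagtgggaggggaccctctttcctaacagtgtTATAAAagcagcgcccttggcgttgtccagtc
Col3a1 (chr1:45311288-45311537, plus strand): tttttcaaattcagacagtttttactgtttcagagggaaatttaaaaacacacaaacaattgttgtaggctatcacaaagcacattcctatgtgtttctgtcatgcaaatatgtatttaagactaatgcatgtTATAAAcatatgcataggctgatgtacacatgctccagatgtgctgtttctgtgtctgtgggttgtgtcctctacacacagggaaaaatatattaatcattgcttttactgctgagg
Reln had 6 matches to GGGCGG and none to the other motifs. Ecm1 and Vim had TATAAA at 27 to 22 and at 32 to 27 bases before the start, and Col3a1 had it at 117 to 112 bases. Over the members with an entry, 60% had GGGCGG, 40% CCAAT and 12% TATAAA, against 32.7%, 33.8% and 12.4% of all 32851 entries, which include alternative starts and non-coding genes. A match is a run of letters and not a measured site.

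The 3 receptors and pericyte genes had higher values in A/J-12SM liver by their brightest probe sets, with a median of 0.05, and none passed the test. Pdgfrb and Pdgfra are receptors of platelet-derived growth factor, which drives stellate cell division. They had differences of 0.05 (95% interval -0.38 to 0.49) and 0.03 (95% interval -0.40 to 0.45). Averaged with their further probe sets, all dim, Pdgfrb had 0.31 (SE 0.37) and Pdgfra -0.55 (SE 0.41). Rgs5, a regulator of G protein signalling typical of pericytes, had 10.35, 10.26 and 10.47 in A/J-12SM and 9.89, 10.36 and 10.22 in A/J liver. A/J replicate 1 was the lowest array, and A/J replicate 2 lay among the A/J-12SM arrays. The difference was 0.20 (SE 0.12, adjusted p = 0.836 from limma), and 2 other bright Rgs5 probe sets gave 0.29 and 0.24, while a dimmer one gave -0.11. Leaving out A/J replicate 1 gave 0.071 and leaving out A/J replicate 2 gave 0.31. With the signals as deposited the difference of Rgs5 was -0.0034.

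Of the 5 activation genes, 4 had lower values in A/J-12SM liver and 1 a higher value, with a median of -0.17. None passed the test. Acta2, the smooth muscle actin that defines myofibroblasts, had 8.45, 8.08 and 8.30 in A/J-12SM and 8.01, 8.68 and 8.22 in A/J liver. The A/J arrays spanned those of A/J-12SM, and the difference was -0.03 (95% interval -0.42 to 0.37). Tagln, transgelin, another protein of the contractile cytoskeleton, had 6.50, 5.71 and 5.64 in A/J-12SM and 5.55, 6.03 and 5.66 in A/J liver. Its difference of 0.20 (SE 0.30, adjusted p = 0.937 from limma) was -0.07 without A/J-12SM replicate 1, its highest array, and -0.03 with the signals as deposited. Vim, the filament protein vimentin of mesenchymal cells, had 8.30, 8.17 and 8.87 in A/J-12SM and 8.25, 8.94 and 8.67 in A/J liver. Its brightest probe set, like that of Col6a2, is of the x type, whose probes may also bind other transcripts. The strains overlapped, with a difference of -0.17 (SE 0.21, adjusted p = 0.925 from limma), and the other 2 Vim probe sets gave -0.15, without overlap (SE 0.12), and -0.10. By its brightest probe set Vim had -0.38 when A/J-12SM replicate 3 was left out, -0.36 when A/J replicate 1 was, -0.033 when A/J-12SM replicate 2 was and -0.0088 when A/J replicate 2 was. Thy1, a surface protein of portal fibroblasts, and Timp1, an inhibitor of matrix proteases that is induced in fibrosis, were below the median brightness. Their differences were -0.33 (SE 0.35) and -0.30 (SE 0.40). Timp1 lay between 4.69 and 4.82 in A/J-12SM and between 4.38 and 5.49 in A/J liver, so its A/J-12SM arrays lay inside the range of the A/J arrays. Leaving out A/J replicate 2 moved the median of the activation genes to -0.01.

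The 5 fibrillar collagen genes, which form the fibrils of scar, had a median difference of -0.01, with 2 higher and 3 lower values in A/J-12SM liver and none past the test. Col3a1, the chain of type III collagen, had 8.87, 8.71 and 9.07 in A/J-12SM and 8.57, 9.42 and 9.27 in A/J liver. A/J replicate 1 was the lowest of the 6 arrays and the other A/J arrays the highest. The difference was -0.21 (SE 0.20, adjusted p = 0.899 from limma), and a second probe set of the gene gave -0.25. The difference of Col3a1 rested on single A/J arrays, with -0.46 when A/J replicate 1 was left out and -0.039 when A/J replicate 2 was left out. Of the chains of type I collagen, Col1a2 had 7.81, 7.60 and 7.67 in A/J-12SM and 7.39, 7.82 and 7.79 in A/J liver, a difference of 0.03 (95% interval -0.31 to 0.37). Col1a1, below the median brightness, had a difference of 0.01 with a wide interval of -0.77 to 0.79. Col5a1 and Col5a2, chains of type V collagen, which starts and limits fibril growth, had differences of -0.11 and -0.01. When all probe sets of each gene were averaged, the median of these 5 genes was -0.23.

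Among the other collagens Col4a1 had a higher and Col14a1 a lower signal in A/J-12SM liver on all arrays, though neither passed the test. Col4a1, a chain of the basement membrane collagen, had 8.01, 8.11 and 8.19 in A/J-12SM and 7.63, 7.75 and 7.85 in A/J liver. The difference was 0.36, or 1.28-fold (SE 0.12, 95% interval 0.09 to 0.63, adjusted p = 0.706 from limma, p = 0.1 by the exact permutation test). Its second probe set gave 0.18 (SE 0.19) with overlap, and with the signals as deposited the difference was 0.13. Col4a2, its partner chain, had 7.42, 7.45 and 7.43 in A/J-12SM and 7.52, 7.32 and 7.29 in A/J liver, with a difference of 0.06 (95% interval -0.24 to 0.35). The 2 genes lie head to head on chromosome 8. The RefSeq start sites used here, on GRCm38.p6, are 11312826 on the minus strand for Col4a1 and 11312805 on the plus strand for Col4a2. The annotated Col4a1 gene reaches 11312889, beyond the site used. The 2 sites enclose 22 bases that transcripts from both sites begin in. These bases are shown because transcription from the 2 sites starts there in opposite directions. They hold a match to GGGCGG, which is not set in capitals here.
Shared start of Col4a1 and Col4a2 (chr8:11312805-11312826, plus strand): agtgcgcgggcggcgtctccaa
Whether the difference of Col4a1 and that of Col4a2 are unequal was not tested.

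Col14a1, a collagen that lies on the surface of fibrils, had 9.21, 9.09 and 9.25 in A/J-12SM and 9.53, 9.47 and 9.38 in A/J liver. All A/J-12SM arrays lay below all A/J arrays, and the difference was -0.27, or 0.827-fold (SE 0.09, 95% interval -0.48 to -0.07, adjusted p = 0.706 from limma, p = 0.1 by the exact permutation test). A second bright Col14a1 probe set gave -0.33 (SE 0.14), also without overlap. With the signals as deposited the difference was -0.51 (adjusted p = 0.138 from limma). Over all 15 alternatives the difference lay between -0.51 and -0.23 and its adjusted p between 0.138 and 0.987. The chains of type VI collagen, a beaded filament near cell surfaces, had differences of -0.17 for Col6a1, -0.01 for Col6a2 and -0.14 for Col6a3, each with overlap of the strains.

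**Figure D2:**
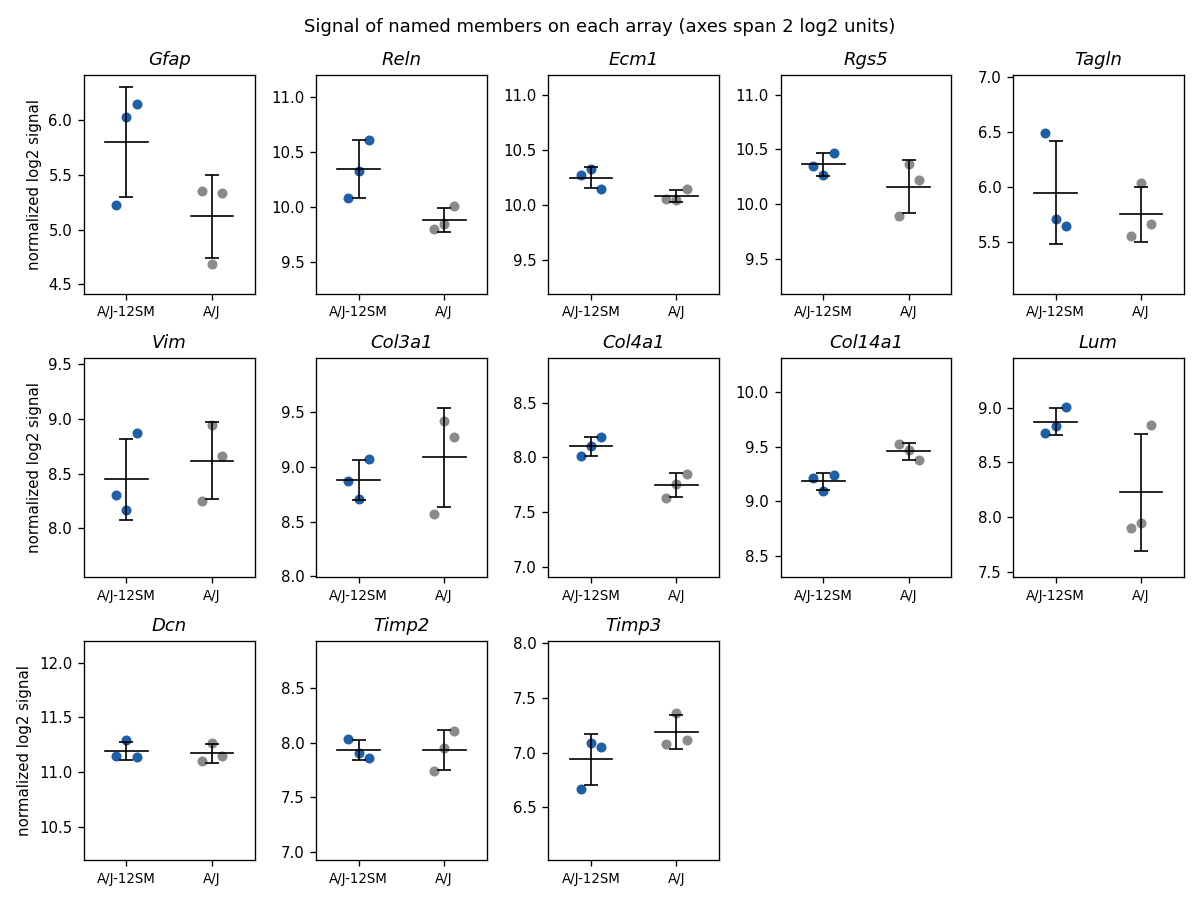
Normalized log2 signal (y axis) on each array of A/J-12SM (blue, left) and A/J liver (grey, right) for the 13 genes chosen by the rule for named genes; points are single arrays, horizontal lines mark means and bars SDs of 3 arrays, and every axis spans 2 log2 units. The strains are apart in Reln, Col4a1 and Col14a1, with differences of 0.46, 0.36 and -0.27, and overlap in the others.

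Of the proteoglycans and matrix proteins, 4 of 6 measured genes had higher values in A/J-12SM liver, with a median of 0.03 and none past the test. Lum, lumican, a small proteoglycan that binds collagen fibrils, had 8.77, 8.83 and 9.01 in A/J-12SM and 7.90, 7.94 and 8.85 in A/J liver. A/J replicate 3 lay at the level of the A/J-12SM arrays, and the other A/J arrays lay lower. The difference was 0.64, or 1.56-fold (SE 0.23, 95% interval 0.14 to 1.15, adjusted p = 0.727 from limma), and 0.95 when A/J replicate 3 was left out (limma, adjusted p = 0.132). Leaving out A/J replicate 1 gave 0.48 and leaving out A/J replicate 2 gave 0.50. With the signals as deposited the difference of Lum was 0.41. Dcn, decorin, a related proteoglycan, had 11.14, 11.29 and 11.14 in A/J-12SM and 11.10, 11.27 and 11.15 in A/J liver. Its arrays coincided, and its interval of -0.17 to 0.21 was the narrowest among the members. Bgn, biglycan, had a difference of 0.10 (SE 0.11) by its brightest probe set and of 0.22 and 0.75 by others. The third, a probe set of the x type whose probes may also bind other transcripts, had 8.99, 8.55 and 8.89 in A/J-12SM and 7.59, 8.28 and 8.30 in A/J liver. These strains did not overlap (SE 0.20, adjusted p = 0.519 from limma), the lowest adjusted p of all 81 probe sets of the members. Sparc, a collagen-binding glycoprotein, had a difference of 0.05 (95% interval -0.18 to 0.28), and Loxl1, an enzyme that cross-links elastin, one of -0.25 (SE 0.29).

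Fbln5, fibulin 5, which organises elastic fibres, is the only member on chromosome 12 (101746565 to 101819119 of GRCm38.p6). It averaged 6.23 ± 0.30 in A/J-12SM and 6.29 ± 0.12 in A/J liver (SD, n = 3 each), a difference of -0.06 (95% interval -0.56 to 0.45). Differences between the SM/J and A/J sequence under its probes were not tested.

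The matrix protease Mmp2 and the inhibitors Timp2 and Timp3 had lower values by their brightest probe sets, with a median of -0.18, and none passed the test. Timp3, an inhibitor that binds to the matrix, had 6.67, 7.09 and 7.05 in A/J-12SM and 7.07, 7.37 and 7.12 in A/J liver. Only A/J-12SM replicate 2 exceeded an A/J array, and the difference was -0.25 (SE 0.17, adjusted p = 0.862 from limma), with -0.10 by each of 2 other bright probe sets. It was -0.11 when A/J-12SM replicate 1, its lowest array, was left out, and -0.16 when A/J replicate 2 was. Timp2 had 8.03, 7.91 and 7.86 in A/J-12SM and 7.74, 7.95 and 8.11 in A/J liver, with a difference of -0.0011 (95% interval -0.30 to 0.30). The other 5 Timp2 probe sets gave 0.08, 0.21, 0.35, 1.14 and 1.87, the last 2 below the median brightness. The strains did not overlap in the probe sets at 0.21, 0.35 and 1.87. The brightest Timp2 probe set had the lowest difference of the 6, and the mean over them was 0.61 (adjusted p = 0.714 from limma). Mmp2, gelatinase A, had a difference of -0.18 (SE 0.23) by its brightest probe set and 0.39 (SE 0.28), without overlap, by another.

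For 27 of the 35 genes more than 1 probe set could be compared. Of 20 further bright probe sets (at or above the median), in 13 genes, 14 gave a difference of the same sign as the brightest probe set and 6 of the opposite sign. In Rgs5, Vim, Col3a1, Col14a1, Col4a1, Col6a2, Bgn, Lrat and Timp3 all such probe sets had the sign of the brightest, and in Col5a1, Sparc, Mmp2 and Timp2 they did not. Another 26 probe sets were dimmer, such as one of Ngfr at -1.78 (SE 0.64) without overlap, against 0.15 by its brightest. Probe sets of a gene share the same RNA and are not replicates.

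**Figure D3:**
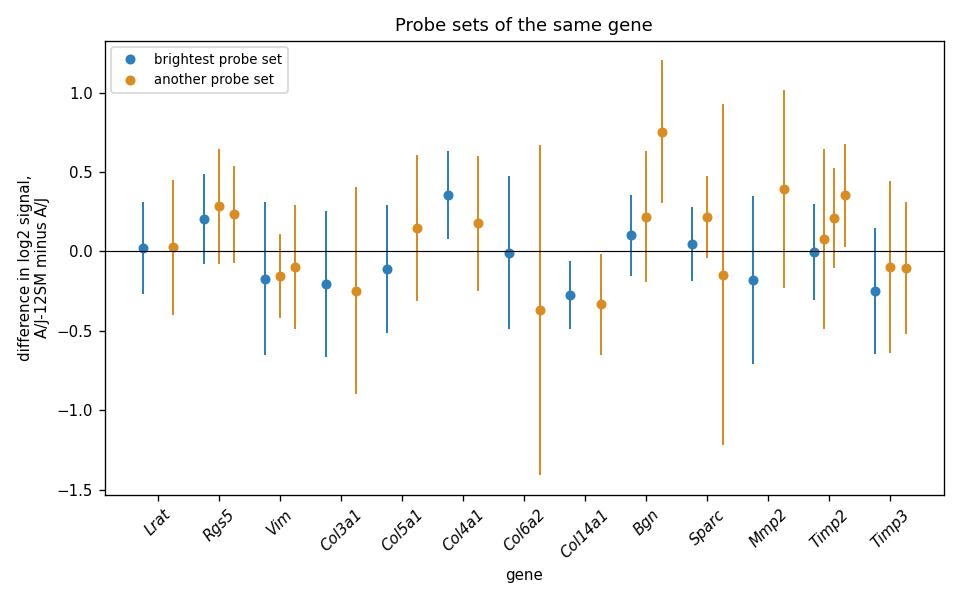
Difference in log2 signal (y axis, A/J-12SM minus A/J) by each bright probe set (at or above the median), for the 13 genes with more than 1 (x axis); blue is the brightest probe set of a gene, orange another, and lines are 95% intervals from limma. Both Col14a1 probe sets lie below zero (-0.27 and -0.33), and the 3 of Bgn range from 0.10 to 0.75.

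Quiescent markers were then set against the activation genes and collagens, of which 16 were measured. The median difference was 0.17 for the 7 quiescent markers and -0.07 for the 16 activation and collagen genes, of which 5 had higher and 11 lower values in A/J-12SM liver. The gap between these medians was 0.24 and, being a difference within arrays, was also 0.24 with the signals as deposited, with arrays centred on their median and with arrays scaled to one trimmed mean. No test was run on these medians, since the genes were chosen with results of these arrays known. By array, the mean of the gene-centred log2 signals of the quiescent markers minus that of the activation and collagen genes was 0.14, 0.00 and 0.32 in A/J-12SM and 0.08, -0.24 and -0.31 in A/J liver. A/J replicate 1 lay above A/J-12SM replicate 2, so the strains overlapped. The highest value belonged to A/J-12SM replicate 3, whose actin ratio was the low one at 0.423, and the part of that in the result was not tested. Without this array the gap was 0.29, and with each array left out in turn it lay between 0.17 and 0.35. It was 0.19 with all probe sets of each gene averaged.

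**Figure D4:**
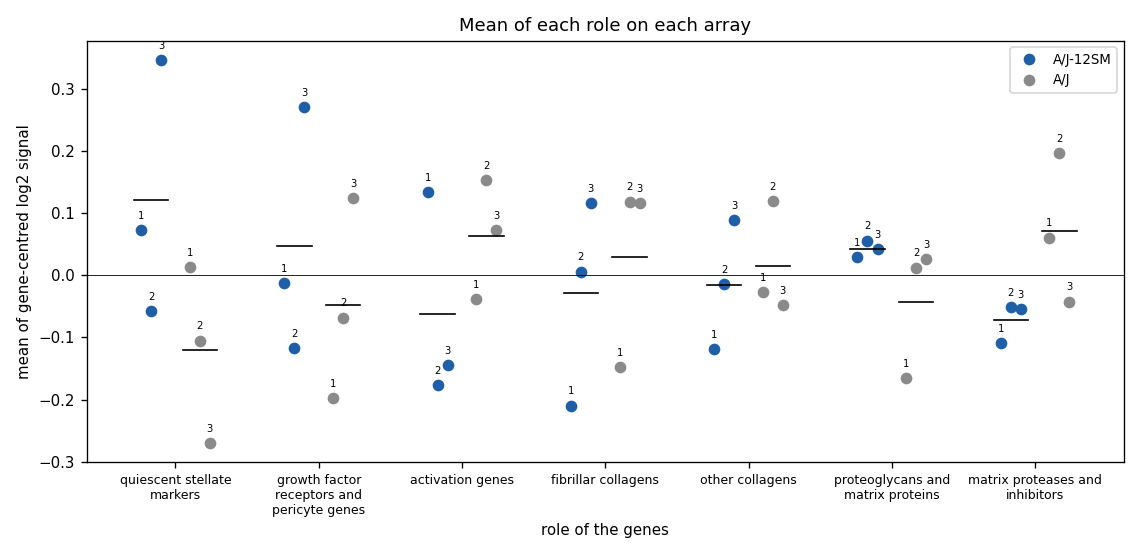
Mean of the gene-centred log2 signals (y axis) of each role (x axis) on each array of A/J-12SM (blue) and A/J liver (grey); points are single arrays labelled by replicate, and lines mark means of 3 arrays. The quiescent markers of A/J-12SM replicate 3 lie highest at 0.35 and those of A/J replicate 3 lowest at -0.27, and the collagen points of the strains overlap.

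Other genes of the same biology, in 5 lists written with earlier results of these arrays known, gave no called gene either. In the signalling list of transforming growth factor beta, which drives collagen synthesis, and of platelet-derived growth factor, 12 of 18 measured genes had higher and 6 lower values, with a median of 0.14. Tgfbr3, a co-receptor for transforming growth factor beta, had 8.14, 8.25 and 8.44 in A/J-12SM and 7.99, 8.07 and 8.09 in A/J liver. The strains did not overlap, with a difference of 0.23 (SE 0.12, adjusted p = 0.826 from limma), and Smad4, which carries its signal to the nucleus, had 0.19 (SE 0.10). Of the genes that process and cross-link collagen, 10 of 15 had higher and 5 lower values, with a median of 0.03. P4hb, a subunit of the prolyl hydroxylase that stabilises the collagen helix, had a difference of -0.19 (SE 0.10) without overlap, and Crtap, a cofactor of prolyl 3-hydroxylation, one of -0.25 (SE 0.17).

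Of 10 further stellate cell genes, 8 had higher and 2 lower values, with a median of 0.09. Colec11, a soluble collectin made by stellate cells in mouse liver, had 10.81, 10.81 and 10.88 in A/J-12SM and 10.39, 10.42 and 10.47 in A/J liver. The strains were 0.41 apart, or 1.33-fold (SE 0.08, 95% interval 0.24 to 0.58, adjusted p = 0.265 from limma), with an SD of 0.04 within each strain. Colec11 lies on chromosome 12 (28594172 to 28623458), and a sequence difference under its probes was not tested. Tcf21, a transcription factor of the stellate lineage, had a difference of 0.20 (SE 0.11) without overlap. Of 26 further matrix genes 12 had higher and 14 lower values (median -0.04), among them Fbln1 at 0.53 (SE 0.45) and Fbln2 at -0.43 (SE 0.31), both fibulins. The 12 matrix proteases and their regulators were split into 6 and 6 with a median of 0.00, among them Reck, a membrane inhibitor of matrix proteases, at 0.30 (SE 0.22), and Adam12, a membrane protease, at 0.05 (SE 0.28). These medians stand beside -0.01 over all genes.

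Markers of other liver cells did not move as one. Of 10 sinusoidal endothelial markers 6 had higher values in A/J-12SM liver (median 0.04), and their summed signal was 5896.4 to 6157.1 in A/J-12SM and 5500.8 to 5627.3 in A/J liver. Of 10 Kupffer cell and macrophage markers 9 had lower values (median -0.27), with sums of 5409.5 to 6666 in A/J-12SM and 6118 to 7441.6 in A/J liver. The sums of 8 hepatocyte markers were 91717 to 93975 in A/J-12SM and 88675 to 90783 in A/J liver. For cells that share markers with the members, 9 of 10 markers of portal fibroblasts and smooth muscle, Myh11 and Cnn1 among them, and 5 of 6 of mesothelial cells were dimmer than the median of all probe sets. Portal fibroblast and smooth muscle sums were 195.7 to 233.91 in A/J-12SM and 230.68 to 294.07 in A/J liver. Of the 4 glial markers 3 had higher values, and 2 (S100b and Cdh19) were dim. Sums of 3 red blood cell markers were 1007.8 to 1307.5 in A/J-12SM and 1460.1 to 1771.5 in A/J liver, and those of 5 T and natural killer cell markers 100.12 to 149.35 in A/J-12SM and 151.5 to 188.61 in A/J liver. The sums of the endothelial, hepatocyte, glial, red blood cell and lymphocyte lists did not overlap between the strains. How often sums of other gene lists are apart was not tested. Of the endothelial markers Fcgr2b alone was higher without overlap, at 0.37 (SE 0.09), and Lyve1 alone lower, at -0.45 (SE 0.21). Of the 8 hepatocyte markers 3 had lower values, and the median was 0.01. Cps1 had the largest difference of these 8, at 0.28 (SE 0.09), and Alb was also higher without overlap, at 0.11 (SE 0.08). Of the red blood cell markers Hba-a1 and Slc4a1 were dim, so that sum was mostly Alas2 (mean log2 signal 10.35, against 4.35 and 4.79). Of the 5 T and natural killer cell markers 4 were dim, among them Gzmb, which had the largest difference of these 5 at -2.17. Bile duct markers summed to 413.4 to 492.97 in A/J-12SM and 301.53 to 472.66 in A/J liver, and all 4 adipocyte markers were dim. No gene in these lists passed the test, and the part of other cells in the values of the members was not tested.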

How the data were processed

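Liver RNA on 6 one-colour Affymetrix arrays was analysed, 3 from A/J-12SM and 3 from A/J mice. The authors deposited linear intensity values for each probe set and array, made with MAS5 per the submitters' processing notes (version and scaling not given in the sources used here). After 64 control probe sets were left out, log2 signals were quantile normalized, which removes any overall strain difference. They were compared with limma 3.58.1 (lmFit, eBayes with trend, no covariates; R 4.3.3), with Benjamini-Hochberg adjustment over 45037 probe sets and a threshold of 0.05. Gene names came from the platform annotation, updated through RefSeq GRCm38.p6, with 34741 of 34945 probe sets of 1 gene matched (932 had several genes and 9160 none). The number of arrays limits the precision. The limma step was tested on simulated data.

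Members and lists were chosen with earlier results of these data known. Values on all arrays are given for called members, for bright members (not below the median signal) without overlap, and in each role for the brightest member and the bright one with the largest difference. Those of Acta2, Lrat, Des, Col1a2 and Col4a2, the Timp1 ranges, and the Bgn and Ngfr probe sets singled out were chosen after their values were seen. From each further list the called genes are named, or else the 2 bright genes with the lowest p. Alternatives were other scalings, an offset of 9.2 (the 20th percentile), a filter at the 40th percentile, 1 prior variance, Student's t-test, a replicate block, the mean over probe sets and single arrays left out. Figures used matplotlib 3.10.9 in Python 3.11.15.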

Additional observations from a re-analysis of the deposited data

How the results depend on the processing

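No member was called under any of the 15 alternatives, among them Student's t-test after Benjamini-Hochberg adjustment. Before adjustment that t-test gave 3 members at a p under 0.05. The scaling of the arrays decided the sign of many small differences. With the signals as deposited, where the median difference over all probe sets was -0.22, 4 members had higher values in A/J-12SM liver and the median of the members was -0.21; Dcn was -0.16, Ecm1 -0.043, Rgs5 -0.0034, Tagln -0.034, Adam12 -0.19, Smad4 -0.028 and Tcf21 -0.026. In all, 15 of the 35 members changed sign under that scaling, 2 with arrays centred on their median (Timp2 among them, at 0.0034) and 3 with arrays scaled to one trimmed mean. With probe sets averaged per gene 12 did, among them Dcn at -0.10, Reln at -0.17, Timp2 at 0.61 and Timp3 at 0.13, and Fbln2 of the further matrix genes was 0.63. With single arrays left out, the median of the members lay between -0.059 (without A/J-12SM replicate 3) and 0.062 (without A/J replicate 2), and the number of members with higher values between 15 and 22. The differences of Dcn lay between -0.030 and 0.067, of Tagln between -0.073 and 0.35, of Timp2 between -0.096 and 0.086 and of Adam12 between -0.089 and 0.19. The gap between quiescent markers and activation and collagen genes lay between 0.17 and 0.35 with single arrays left out, and was 0.19 with probe sets averaged and 0.22 with the offset. The other alternatives leave the differences as they are or move all genes nearly alike, so they say little about this gap. Equal replicate numbers did not deviate together (correlations of -0.06, 0.09 and 0.16), and the replicate block left 0 members called while 28 of all probe sets were called, against 25 without it. That count of all probe sets was 47 with the signals as deposited, 10 genes with probe sets averaged, 1 with 1 prior variance and 6 to 23 with single arrays left out. At 3 arrays per strain the 95% interval of a typical member at or above the median brightness reached 0.42 to either side before adjustment.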
